A study of Rattus norvegicus with 16 samples.

Results

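The genes described here encode the subunits of respiratory complexes II, III, IV and V and the carrier cytochrome c, in tibialis anterior muscle of Wistar-Imamichi rats. They were chosen by gene symbol, with earlier results of these data known. The rule took every row annotated as protein-coding whose symbol belongs to the Sdh, Uqcr, Cyc1, Cycs, Cox4 to Cox8, Atp5, Mt-co, Mt-cyb or Mt-atp families. This gave 52 genes of 23096 protein-coding rows, 46 of them nuclear and 6 encoded on mitochondrial DNA. Complex II held 4, complex III 9 nuclear and 1 mitochondrial, cytochrome c 1, complex IV 17 nuclear and 3 mitochondrial, and complex V 15 nuclear and 2 mitochondrial. The 4 WT_ND libraries came from rats with the genotype label WT on the normal diet, ND. The 6 DMD_ND libraries came from rats with the genotype label Dmd, mutated in the dystrophin gene, on the same diet, and the 6 DMD_KD libraries from Dmd rats on the diet labelled MCTKD. The labels leave MCTKD unexplained; in nutrition the letters usually mean a ketogenic diet rich in medium-chain triglycerides. Feeding lasted from weaning until 9 months in all 3 groups, and no wild-type rats on MCTKD were analysed here. The labels name neither the Dmd allele nor the animal behind each library, so the spread between libraries may in part be technical.

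The respiratory chain passes electrons from metabolic fuels to oxygen and uses the energy to pump protons across the inner mitochondrial membrane. Complex II, succinate dehydrogenase, takes electrons from the citric acid cycle and hands them to ubiquinone; complex III passes them on to cytochrome c, and complex IV, cytochrome c oxidase, to oxygen. Complex V, the ATP synthase, lets the protons flow back and makes ATP. Complex II is made of nuclear-encoded proteins only, whereas complexes III, IV and V combine nuclear subunits with a few that mitochondrial DNA encodes. Several complex IV subunits come as tissue isoforms, such as Cox6a2 in heart and skeletal muscle and Cox6a1 in most other tissues.

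Assigned reads ran from 17125084 to 28116085 per library. The level of a gene is given in FPKM, fragments per kilobase of gene at a library size set by the authors, as they deposited it. Dmd itself stood at 4.13 to 11.9 FPKM in WT_ND, 1.37 to 1.98 in DMD_ND and 0.546 to 2.04 in DMD_KD. All 9 tested marker genes of the muscle fibre were lower in DMD_ND than in WT_ND (4 under the TPM scaling explained below), with a summed level of 60171 to 111139 FPKM against 21197 to 37792, and 30086 to 95252 in DMD_KD. All 10 macrophage and leukocyte markers were higher, from 14.0 to 35.9 FPKM summed in WT_ND to 194.5 to 302.4 in DMD_ND and 167.8 to 289.0 in DMD_KD, as were all 7 markers of fibro-adipogenic progenitors. By the same test, described below, 34.3% of all 12119 tested genes were called lower and 31.5% higher. Under TPM 8575 of them were called higher. Heart markers were near 0. These shifts run in parallel with every genotype result below, and their part in them was not tested; in whole muscle, fewer fibres and less RNA per fibre cannot be told apart. WT_ND replicates 1 and 4 and DMD_KD replicate 3 stood apart from the rest of their groups, with array weights of 0.283, 0.238 and 0.129 where every other library had at least 0.744. Each comparison is therefore also given without these 3 libraries, which leaves only 2 libraries in WT_ND. In that group the split is 2 against 2, so which pair is the typical one is not settled.

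In dystrophic muscle on the normal diet most subunits of all 4 complexes were at lower levels than in wild-type muscle, an outcome that for complexes III, IV and V depended on the scaling between libraries. The test, limma on log2(FPKM + 1), covered the 12119 genes that reached 1 FPKM in 4 or more libraries, and a gene was called at a Benjamini-Hochberg adjusted p under 0.05. Of the 47 subunit genes that passed this filter, 41 were called lower in DMD_ND than in WT_ND (19 under TPM), 1 was called higher and 5 were not called, whereas of all tested genes 65.7% were called, 34.3% lower and 31.5% higher. The median log2 fold change was -1.15 over the subunits and -0.04 over all tested genes. In 39 of the 47 every DMD_ND library lay below every WT_ND library, which held for 28.3% of all tested genes, and in 1 every DMD_ND library lay above, which held for 26.8%. Without the 3 libraries that stood apart 41 were lower and 3 higher (Atp5if1, Cox6a1 and Cox7a1), with a median of -0.84.

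How low the subunits appear depends on how libraries are scaled to each other. The deposited values hold the typical gene level between libraries. With each library brought to an equal sum of length-normalised reads instead (TPM), the median tested gene moved from -0.04 to 0.73 and calls over all genes split into 8575 higher and 721 lower. Under TPM 19 subunits remained called lower, all of them among the 41, 7 were called higher (Atp5if1, Atp5mf, Atp5mg, the second Atp5mk row, Cox6a1, Cox7a1 and Cox7a2l), and the median was -0.13. Of the 41, the direction of 13 turned under TPM: Uqcrb, Uqcrh, Uqcrq, Uqcr10, Cox6c, Cox7b, Cox7c, Atp5mc2, Atp5me, Atp5mf, Atp5mg, Atp5mk and Atp5pf. Sdhd, Uqcrc2, Cycs, Cox6a2, Cox6b1, Cox7a2l2, Atp5f1d, Atp5pd and Atp5po stayed below 0 but were no longer called. Measured against the median gene of the same scaling, the subunits' median was -0.86 under TPM, and 43 of 47 lay below that gene. As a share of reads within a library, which needs no scaling between libraries, the nuclear subunits took 1.88 to 2.10% in WT_ND, 1.36 to 1.51% in DMD_ND and 1.38 to 1.82% in DMD_KD. As a share of summed FPKM the nuclear subunits' ranges met, at 2.73 to 3.03% in WT_ND and 2.50 to 2.79% in DMD_ND, whereas those of the mitochondrial subunits did not, at 25.4 to 29.7% and 17.1 to 19.3%.

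**Figure D1:**
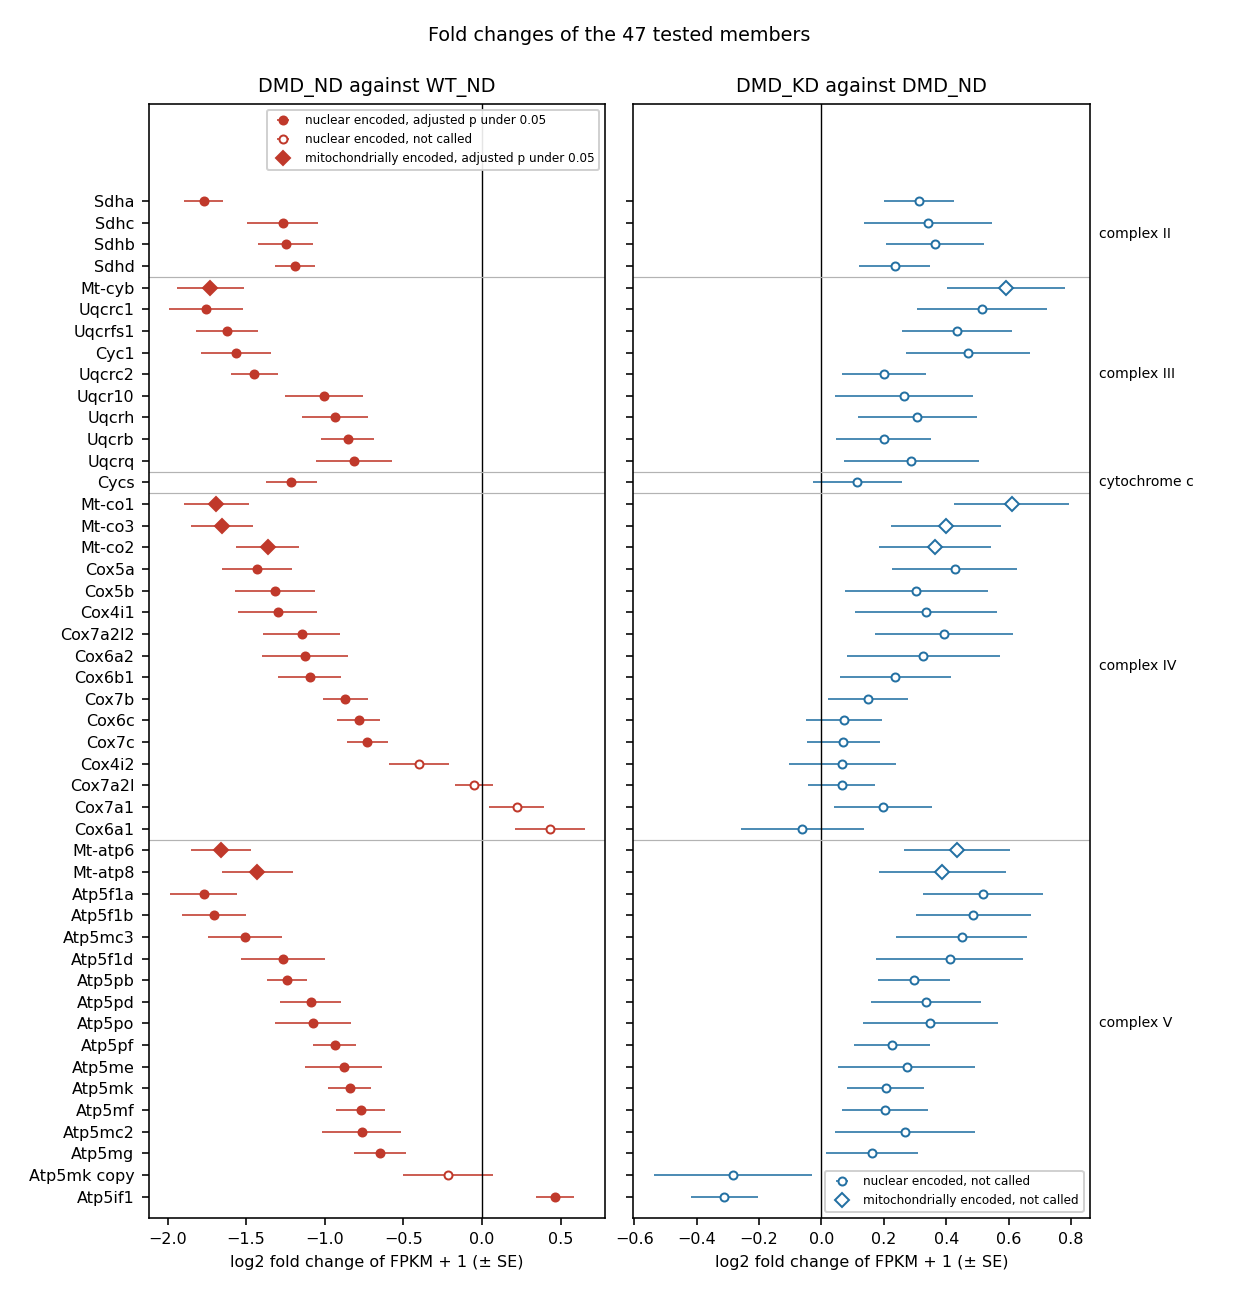
Log2 fold change with its SE for the 47 tested subunit genes, by complex, in DMD_ND against WT_ND and in DMD_KD against DMD_ND; filled symbols passed an adjusted p under 0.05 and diamonds are mitochondrially encoded. On the genotype side 41 are filled below 0 (19 when scaled as TPM) and 1 above, and on the diet side none is filled while 44 lie above 0 (28 under TPM).

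The promoters of 5 subunits are shown because they span the responses: Sdha and Uqcrc1 among the steepest falls, Cox4i1 and the muscle isoform Cox6a2 in complex IV, and Atp5if1, the subunit that was called higher. Each is the RefSeq sequence of rat build GRCr8 from 250 bases before to 50 after the annotated start, 300 bases in all, written 5′ to 3′ along the gene's strand. Capitals mark matches to the motif of NRF1, a transcription factor of nuclear respiratory genes, or to the ETS motif read by GABPA, also called NRF2 (CCGGAAG), each searched on both strands.
Sdha (chr1:30764303-30764602, plus strand): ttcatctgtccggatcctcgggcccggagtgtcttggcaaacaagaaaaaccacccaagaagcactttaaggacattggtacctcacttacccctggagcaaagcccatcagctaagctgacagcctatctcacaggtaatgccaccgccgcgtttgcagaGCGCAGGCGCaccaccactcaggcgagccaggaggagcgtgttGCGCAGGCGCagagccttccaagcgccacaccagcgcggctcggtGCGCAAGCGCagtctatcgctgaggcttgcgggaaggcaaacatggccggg
Uqcrc1 (chr8:118467973-118468272, plus strand): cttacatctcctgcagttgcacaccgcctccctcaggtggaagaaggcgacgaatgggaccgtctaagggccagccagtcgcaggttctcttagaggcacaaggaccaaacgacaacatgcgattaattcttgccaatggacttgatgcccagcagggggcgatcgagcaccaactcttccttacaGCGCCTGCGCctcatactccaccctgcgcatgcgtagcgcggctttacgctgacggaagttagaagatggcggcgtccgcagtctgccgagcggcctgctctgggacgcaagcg
Cox4i1 (chr19:65630133-65630432, plus strand): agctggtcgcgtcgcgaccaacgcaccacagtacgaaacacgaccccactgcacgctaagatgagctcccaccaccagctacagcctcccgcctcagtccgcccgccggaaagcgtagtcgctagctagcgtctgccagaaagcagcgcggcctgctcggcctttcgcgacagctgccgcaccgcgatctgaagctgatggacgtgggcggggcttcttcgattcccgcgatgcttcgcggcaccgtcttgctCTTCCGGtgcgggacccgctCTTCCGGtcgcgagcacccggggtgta
Cox6a2 (chr1:192219667-192219966, minus strand): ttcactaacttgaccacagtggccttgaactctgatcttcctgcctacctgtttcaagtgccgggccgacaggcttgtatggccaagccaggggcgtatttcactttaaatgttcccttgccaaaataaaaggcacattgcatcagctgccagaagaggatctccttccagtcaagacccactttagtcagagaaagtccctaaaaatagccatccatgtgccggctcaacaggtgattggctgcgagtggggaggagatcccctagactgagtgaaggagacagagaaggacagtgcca
Atp5if1 (chr5:150026628-150026927, minus strand): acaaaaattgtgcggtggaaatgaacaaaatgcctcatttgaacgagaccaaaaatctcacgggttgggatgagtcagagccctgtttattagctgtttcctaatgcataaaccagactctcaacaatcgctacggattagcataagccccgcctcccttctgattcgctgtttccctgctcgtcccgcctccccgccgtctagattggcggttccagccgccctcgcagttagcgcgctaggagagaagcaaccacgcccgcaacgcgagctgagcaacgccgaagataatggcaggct
The Sdha promoter held 3 NRF1 matches, Uqcrc1 held 1, and Cox4i1 held 2 ETS matches; Cox6a2 and Atp5if1 held neither set of letters in this window. Of the 46 nuclear subunits, 35 had a promoter that matched in symbol and chromosome, 6 of which (17.1%) held an NRF1 match and 12 (34.3%) an ETS match, and 1 of these, Atp5me, held both. Among all 33469 promoters of the same length in the RefSeq table the shares were 4.25% and 8.75%. The subunit promoters were also richer in G and C, with a median of 55.3% against 51.7%. All 17 subunits with either motif were among the 30 called lower in DMD_ND that had a promoter, while the 3 others tested had none, too few to set apart. Among the 30, genotype log2 fold changes ran from -1.77 (Sdha) to -0.77 (Atp5mc2) with an NRF1 match. They ran from -1.77 (Atp5f1a) to -0.65 (Atp5mg) with an ETS match, and from -1.70 (Atp5f1b) to -0.73 (Cox7c) with neither. A relation between motif and size of fall was not tested. A match describes letters only, and binding was not measured here.

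Mitochondrially encoded subunits had larger falls than the typical nuclear one. All 6 were called lower in DMD_ND than in WT_ND, with log2 fold changes of -1.73 to -1.36 and a median of -1.66, while the 41 tested nuclear genes had a median of -1.09, with 35 called lower, 1 higher and 5 not called. The nuclear genes Sdha (-1.77), Atp5f1a (-1.77) and Uqcrc1 (-1.76) fell further than any of the 6. A group of 7 catalytic and core nuclear subunits of complexes III and V, drawn with the values known, had a median of -1.62. The medians differed by -0.57, a gap that was -0.56 under TPM scaling, where the medians were -0.64 and -0.08; the gap itself was not tested. Messenger RNA was caught by its poly-A tail, and mitochondrial transcripts carry short tails, so their level here also reflects how well they were caught, which was not tested.

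Mt-co1 encodes the catalytic core of complex IV (ENSRNOG00000034234, chromosome MT, 5323 to 6867, plus strand). Its level was 84749, 59466, 75488 and 48015 FPKM in WT_ND replicates 1, 3, 4 and 9, an order kept below, 18394 to 22902 (median 19891) in DMD_ND and 24727 to 50111 (median 29088) in DMD_KD. All DMD_ND libraries lay below all WT_ND libraries (log2 fold change -1.69, SE 0.21, adjusted p = 1.79e-06). Mt-co2, which carries the copper site that accepts electrons from cytochrome c, stood at 33105, 22904, 32383 and 16669 FPKM in WT_ND, 9142 to 10720.5 (median 9617) in DMD_ND and 10249 to 17489.7 (median 12395) in DMD_KD. Of the 6 it fell least (log2 fold change -1.36, SE 0.20, adjusted p = 1.37e-05), and DMD_KD overlapped both other groups. Mt-co3, the third core subunit, stood at 70127, 47511, 62771 and 34279.6 FPKM in WT_ND, 15295 to 17643 (median 16264) in DMD_ND and 18009.6 to 29251 (median 21671) in DMD_KD. Every DMD_KD library lay between the other groups, above the highest DMD_ND and below the lowest WT_ND library (genotype log2 fold change -1.65, SE 0.20, adjusted p = 1.32e-06).

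Mt-cyb, cytochrome b, is the subunit of complex III that mitochondrial DNA encodes and binds ubiquinone (ENSRNOG00000031766, chromosome MT, 14136 to 15278, plus strand). It stood at 39268, 26708, 33681 and 21381 FPKM in WT_ND, 8197 to 9878 (median 8733) in DMD_ND and 10194 to 22818 (median 12452) in DMD_KD. The fall was the steepest of the 6 (log2 fold change -1.73, SE 0.21, adjusted p = 2.06e-06) and the groups on the normal diet did not overlap. Mt-atp6 forms the proton channel of complex V, and Mt-atp8 is a small neighbour whose gene overlaps it on the chromosome, at 7919 to 8599 and 7758 to 7961, so that reads in the shared stretch could belong to either. Mt-atp6 stood at 67755, 49977, 61485 and 37723 FPKM in WT_ND, 15684 to 17979 (median 16838) in DMD_ND and 18819 to 33171 (median 21750.2) in DMD_KD, again with DMD_KD between the other groups (log2 fold change -1.66, SE 0.19, adjusted p = 8.88e-07 for the genotype). Mt-atp8 stood at 1045, 678, 899 and 451 FPKM in WT_ND, 228 to 311 (median 279) in DMD_ND and 295 to 603 (median 331) in DMD_KD (log2 fold change -1.43, SE 0.23, adjusted p = 3.22e-05). For this pair, too, wild type and the mutants on the normal diet did not overlap.

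Within each library, the mitochondrial subunits took 13.2 to 17.1% of all assigned reads in WT_ND, 8.36 to 9.67% in DMD_ND and 10.4 to 12.3% in DMD_KD. The 3 ranges do not meet. The ratio of the median mitochondrial to the median nuclear subunit FPKM was 89.3 to 121.3 in WT_ND, 68.4 to 80.9 in DMD_ND and 74.9 to 94.8 in DMD_KD, so that the mutants on the normal diet lay below wild type while DMD_KD overlapped both. These ratios also do not depend on the scaling between libraries.

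**Figure D2:**
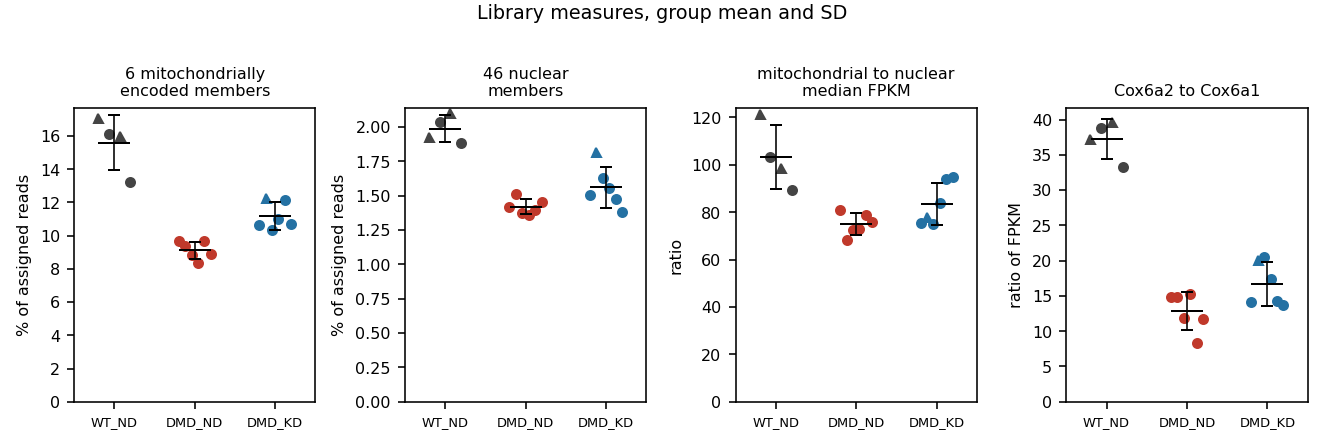
Per-library share of reads in mitochondrially encoded and in nuclear subunits (%), the ratio of their median FPKM, and the Cox6a2 to Cox6a1 ratio, each point 1 library, by group. The mitochondrial share separates all 3 groups, at 13.2 to 17.1%, 8.36 to 9.67% and 10.4 to 12.3%, and the isoform ratio falls from 33.3 to 39.6 in WT_ND to 8.32 to 15.2 in DMD_ND.

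Complex II fell as a whole. All 4 subunits were called lower in DMD_ND, each with no overlap between the groups, at a median log2 fold change of -1.26 (-0.25 under TPM, where Sdhd was no longer called). Sdha, the flavoprotein that oxidises succinate (ENSRNOG00000013331, chromosome 1, 28940164 to 28961535, plus strand), stood at 282, 289.6, 259.9 and 256 FPKM in WT_ND, 64.5 to 88.5 (median 82.0) in DMD_ND and 83.9 to 117 (median 98.1) in DMD_KD. Its fall was the steepest of any nuclear subunit alongside that of Atp5f1a (log2 fold change -1.77, SE 0.12, adjusted p = 3.55e-09), and it kept its distance from WT_ND in every DMD_KD library. Sdhb, the iron-sulphur subunit, stood at 298, 218, 308 and 198 FPKM in WT_ND, 98.1 to 114 (median 105) in DMD_ND and 105 to 212 (median 129) in DMD_KD (log2 fold change -1.25, SE 0.17, adjusted p = 8.09e-06). Only DMD_KD replicate 3, at 212 FPKM, reached the lowest WT_ND level.

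Sdhc and Sdhd anchor complex II in the membrane and bind ubiquinone. Sdhc stood at 420.2, 285, 439 and 252 FPKM in WT_ND, 124 to 155 (median 141) in DMD_ND and 115 to 334 (median 172) in DMD_KD (log2 fold change -1.27, SE 0.23, adjusted p = 1.14e-04). WT_ND replicates 1 and 4 were well above replicates 3 and 9, and DMD_KD replicate 3 was again inside the wild-type range. Sdhd stood at 319, 359, 317 and 295 FPKM in WT_ND, 118 to 157 (median 147) in DMD_ND and 136 to 190.4 (median 167) in DMD_KD (log2 fold change -1.19, SE 0.13, adjusted p = 4.16e-07). Its wild-type values were the more even, and both Dmd groups lay below all of them.

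In complex III all 8 tested nuclear subunits were called lower, with no overlap, at a median log2 fold change of -1.23. Under TPM the median was -0.22 and only Uqcrc1, Cyc1 and Uqcrfs1 were still called; Uqcrc2 missed the threshold (adjusted p = 0.0961), and Uqcrb, Uqcrh, Uqcrq and Uqcr10 lay above 0 without being called. The subunits that carry the electrons or form the large core fell most. Uqcrc1, a core protein (ENSRNOG00000032134, chromosome 8, 109589706 to 109601480, plus strand), stood at 795, 518, 792 and 456 FPKM in WT_ND, 161 to 200.1 (median 187) in DMD_ND and 185 to 506 (median 250.2) in DMD_KD (log2 fold change -1.76, SE 0.23, adjusted p = 4.77e-06), the steepest fall of the complex. Cyc1, cytochrome c1, which hands electrons to cytochrome c, stood at 841, 594, 868 and 539.9 FPKM in WT_ND, 198 to 263 (median 244) in DMD_ND and 232 to 618 (median 298) in DMD_KD (log2 fold change -1.56, SE 0.22, adjusted p = 1.03e-05). The Rieske iron-sulphur protein Uqcrfs1 stood at 861, 649, 974 and 541 FPKM in WT_ND, 204 to 269 (median 246) in DMD_ND and 243 to 518 (median 310.3) in DMD_KD (log2 fold change -1.62, SE 0.20, adjusted p = 1.75e-06), and the core protein Uqcrc2 at 179, 247, 177 and 199, 60.5 to 80.2 (median 76.6) and 62.9 to 101 (median 83.8) (log2 fold change -1.45, SE 0.15, adjusted p = 2.91e-07). In Uqcrc2 the wild-type order differed from that of Uqcrc1, Cyc1, Uqcrfs1 and Uqcrq: replicates 1 and 4 were the lowest, and DMD_KD replicate 3 was the lowest of its group.

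The 4 small subunits Uqcrb, Uqcrh, Uqcrq and Uqcr10 fell less, at a median of -0.89. Uqcrq, the most abundant nuclear subunit of the complex, stood at 886, 583, 947 and 503 FPKM in WT_ND, 359.9 to 451 (median 396) in DMD_ND and 362 to 989 (median 438) in DMD_KD, and fell least (log2 fold change -0.81, SE 0.24, adjusted p = 0.00693), a direction that turned under TPM scaling (0.20). A second row named Uqcrb reached at most 0.319 FPKM and was not tested. Cycs, cytochrome c, the soluble carrier between complexes III and IV, stood at 334, 398, 371 and 352 FPKM in WT_ND, 124 to 178 (median 165) in DMD_ND and 123 to 215 (median 174) in DMD_KD. Both Dmd groups lay below every wild-type library (log2 fold change -1.21, SE 0.16, adjusted p = 4.54e-06), and DMD_KD replicate 3 was the lowest of all 16 here, unlike in most subunits.

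Complex IV had more nuclear subunits that were not called than any other complex. Of 13 tested nuclear subunits 9 were called lower, all without overlap, and 4 were not called, at a median log2 fold change of -0.87 that turned to 0.14 under TPM scaling. Cox5a, a structural subunit of the matrix side, fell most in this complex: 529.6, 342, 551 and 312 FPKM in WT_ND, 130.0 to 189.8 (median 154) in DMD_ND and 151 to 372 (median 196) in DMD_KD (log2 fold change -1.43, SE 0.22, adjusted p = 2.77e-05). Cox6b1, on the side facing cytochrome c, stood at 828, 687, 898 and 519 FPKM in WT_ND, 312 to 362 (median 334) in DMD_ND and 308 to 698 (median 368) in DMD_KD (log2 fold change -1.10, SE 0.20, adjusted p = 1.29e-04). For both genes every DMD_ND library lay below every WT_ND library. Cox5b, which binds zinc on the matrix side, stood at 393, 251, 401 and 218 FPKM in WT_ND, 109 to 160.2 (median 116) in DMD_ND and 106 to 316 (median 139.8) in DMD_KD (log2 fold change -1.32, SE 0.26, adjusted p = 2.37e-04). The small membrane subunits Cox6c and Cox7c were more even across libraries and fell less, from 1536 ± 150.1 (SD, n = 4) FPKM to 893 ± 90.4 (n = 6) for Cox6c (log2 fold change -0.78, SE 0.14, adjusted p = 8.02e-05) and from 335 ± 39.5 (SD, n = 4) to 202 ± 26.2 (n = 6) for Cox7c (log2 fold change -0.73, SE 0.13, adjusted p = 1.17e-04), directions that turned under TPM scaling (0.23 and 0.28). Cox7b stood at 403, 662, 508 and 533 FPKM in WT_ND, 263 to 305 (median 283) in DMD_ND and 269 to 371 (median 314) in DMD_KD (log2 fold change -0.87, SE 0.14, adjusted p = 4.35e-05), and its direction turned under TPM (0.14).

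Isoforms of 1 subunit moved unequally. Cox6a2, the isoform of heart and skeletal muscle and the most abundant nuclear subunit of complex IV (ENSRNOG00000019851, chromosome 1, 182788528 to 182789274, minus strand), stood at 3810.4, 2232, 3908 and 1905 FPKM in WT_ND, 1097 to 1531 (median 1307) in DMD_ND and 1188 to 3522 (median 1442) in DMD_KD, and was called lower (log2 fold change -1.13, SE 0.27, adjusted p = 0.00166), a call lost under TPM (log2 fold change -0.11, adjusted p = 0.438). Cox6a1, the isoform of other tissues (ENSRNOG00000001170, chromosome 12, 41261967 to 41265041, plus strand), stood at 102, 57.4, 98.6 and 57.2 FPKM in WT_ND, 86.7 to 132 (median 101) in DMD_ND and 81.5 to 175 (median 87.0) in DMD_KD, and was not called (log2 fold change 0.43, SE 0.22, adjusted p = 0.0933). It was called higher without the 3 libraries that stood apart and under TPM or upper-quartile scaling. The ratio of Cox6a2 to Cox6a1 within a library, on which scaling has no bearing, was 33.3 to 39.6 in WT_ND, 8.32 to 15.2 in DMD_ND and 13.7 to 20.5 in DMD_KD, so that both Dmd groups lay below wild type. Markers of macrophages and fibro-adipogenic progenitors rose in the same libraries, and their part in the ratio was not tested.

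Cox4i1, the regulatory subunit found in most tissues, stood at 659, 385, 682 and 328 FPKM in WT_ND, 189 to 217 (median 195) in DMD_ND and 187 to 513 (median 233) in DMD_KD (log2 fold change -1.30, SE 0.25, adjusted p = 2.44e-04). Its isoform Cox4i2, linked to lung and low oxygen, was barely detected, at no more than 3.08 FPKM in WT_ND and 0.545 to 2.13 (median 1.75) in DMD_ND, and was not called (log2 fold change -0.40, SE 0.19, adjusted p = 0.0737). In the Cox7a family the row named Cox7a2l2, which the deposited table describes as Cox7a2 and which is therefore uncertain, stood at 889, 675, 1064 and 578 FPKM in WT_ND, 328 to 384 (median 350.3) in DMD_ND and 314 to 990.4 (median 428) in DMD_KD (log2 fold change -1.15, SE 0.25, adjusted p = 5.83e-04). Cox7a2l, an assembly factor of supercomplexes rather than a plain subunit, was not called, at 77.8, 73.4, 87.8 and 72.0 FPKM in WT_ND, 64.4 to 81.6 (median 75.6) in DMD_ND and 67.1 to 101 (median 75.8) in DMD_KD (log2 fold change -0.05, SE 0.12, adjusted p = 0.724); under TPM it was called higher (0.95). The row named Cox7a1, the muscle isoform by name, held only 1.92, 1.06, 2.22 and 1.03 FPKM in WT_ND and 1.52 to 2.30 (median 1.90) in DMD_ND and was not called (log2 fold change 0.22, SE 0.18, adjusted p = 0.28). With so low a level for a muscle isoform, this row is uncertain too, also where it was called higher in other settings. Cox7b2, Cox8c and Cox6c-ps1 were listed at 0 in every library, and Cox6b1-ps1 in all except 1 DMD_KD library at 0.152 FPKM.

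**Figure D3:**
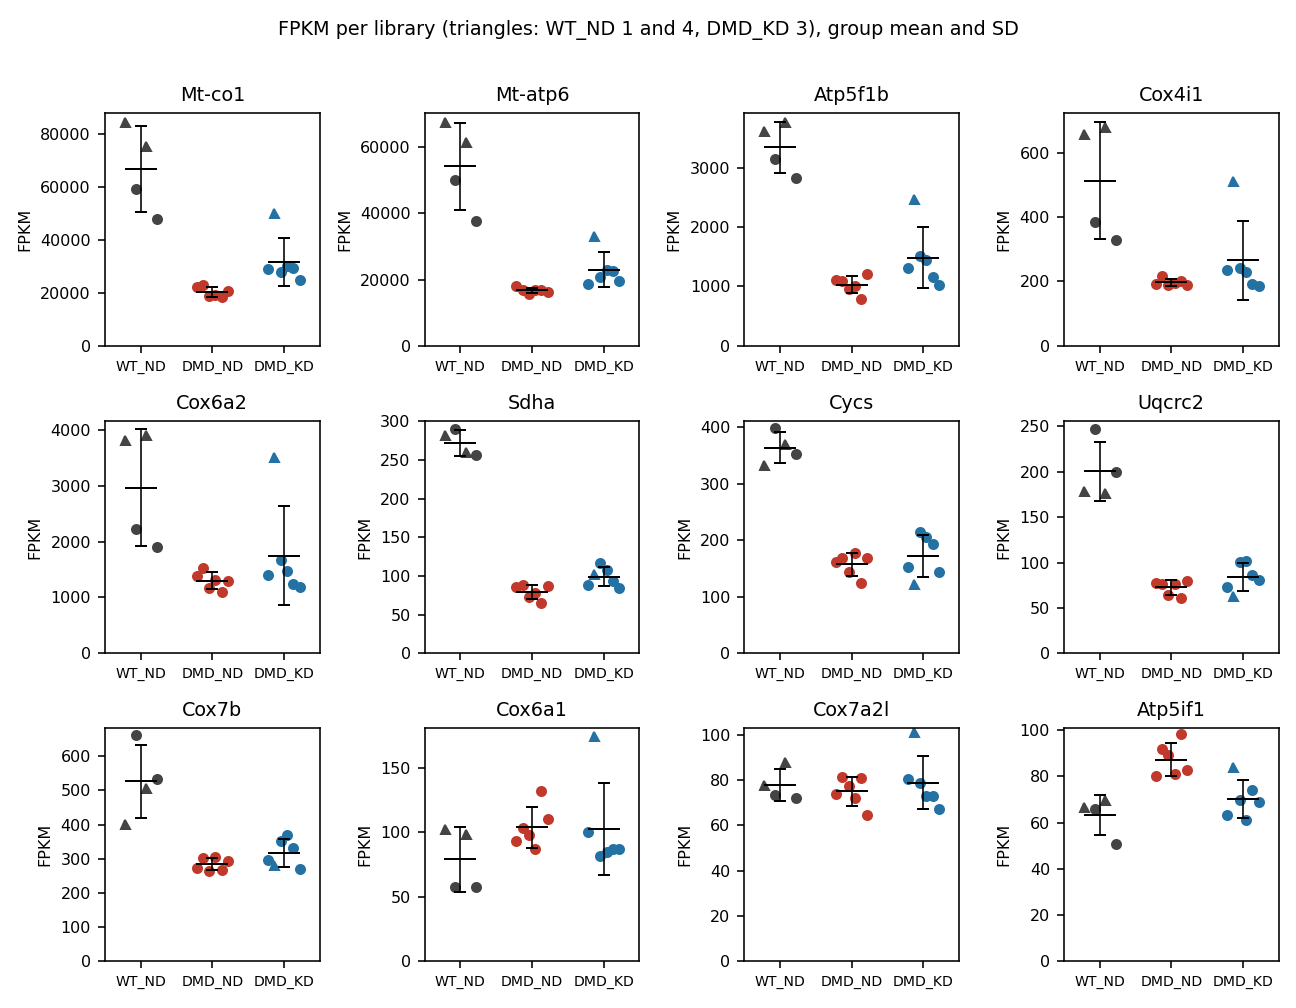
FPKM of 12 subunit genes in each library of WT_ND, DMD_ND and DMD_KD, with group mean and SD; triangles mark WT_ND replicates 1 and 4 and DMD_KD replicate 3. Sdha, Cycs, Uqcrc2, Cox7b, Mt-atp6 and Atp5f1b show no overlap between wild type and either Dmd group, whereas DMD_KD replicate 3 reaches the wild-type range in Mt-co1, Cox4i1 and Cox6a2.

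In complex V the medians differed by part of the enzyme. Of 15 tested nuclear members 13 were called lower, 1 was higher and 1 was not called, at a median log2 fold change of -0.94 that turned to 0.07 under TPM scaling. By median the F1 head that makes ATP fell most: Atp5f1a, Atp5f1b and Atp5f1d had -1.70, against -1.08 for the 4 genes of the peripheral stalk and -0.81 for 6 membrane subunits. These groupings, like that of complex III, were drawn with the values known. Their members overlapped: Atp5f1d, at -1.27, was near the stalk gene Atp5pb, at -1.24, and the membrane gene Atp5mc3 fell more, at -1.51. Under TPM Atp5f1a, Atp5f1b and Atp5f1d had -0.76, -0.69 and -0.26, and Atp5mc3 had -0.49. Atp5f1b, the catalytic beta subunit and the most abundant nuclear gene of the complex (ENSRNOG00000002840, chromosome 7, 515460 to 567273, plus strand), stood at 3616, 3150.2, 3764 and 2824 FPKM in WT_ND, 794 to 1209 (median 1045) in DMD_ND and 1017 to 2464 (median 1378) in DMD_KD, with no overlap between wild type and either Dmd group (log2 fold change -1.70, SE 0.21, adjusted p = 1.62e-06). Atp5f1a, the alpha subunit, stood at 2441, 1556, 2384 and 1416 FPKM in WT_ND, 441 to 615 (median 589) in DMD_ND and 612 to 1312 (median 748) in DMD_KD, also apart from wild type in both Dmd groups (log2 fold change -1.77, SE 0.21, adjusted p = 1.75e-06). Atp5f1d, the delta subunit of the rotor, had a higher spread in wild type, at 309 ± 118 (SD, n = 4) FPKM against 121 ± 11.7 (n = 6) in DMD_ND (log2 fold change -1.27, SE 0.26, adjusted p = 4.61e-04).

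The peripheral stalk holds the head still while the rotor turns. Its genes Atp5pb, Atp5pd, Atp5pf and Atp5po were all called lower without overlap, at log2 fold changes of -1.24, -1.09, -0.94 and -1.07. Under TPM these were -0.23, -0.08, 0.07 and -0.06, and only Atp5pb was still called. Atp5pb, the most changed of them, stood at 509.8, 501, 581 and 437 FPKM in WT_ND, 189.6 to 244 (median 213) in DMD_ND and 219.9 to 324 (median 258) in DMD_KD (log2 fold change -1.24, SE 0.13, adjusted p = 3.05e-07). Among the membrane subunits that link monomers into rows, Atp5me changed by -0.88, Atp5mf by -0.77, Atp5mg by -0.65 and Atp5mk by -0.84, all called lower; under TPM Atp5mf and Atp5mg were called higher.

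The c subunit, whose ring turns as protons pass, is encoded by several genes with the same mature protein. Atp5mc3 stood at 652, 499, 714 and 407 FPKM in WT_ND, 171 to 234 (median 191) in DMD_ND and 174 to 518 (median 248) in DMD_KD and was called lower (log2 fold change -1.51, SE 0.23, adjusted p = 2.61e-05). Atp5mc2 stood at 890.0, 445, 872 and 449 FPKM in WT_ND, 351 to 411 (median 361) in DMD_ND and 343 to 869 (median 405) in DMD_KD, a smaller fall (log2 fold change -0.77, SE 0.25, adjusted p = 0.0128) whose direction turned under TPM (0.25). WT_ND replicates 1 and 4 were far above replicates 3 and 9 in Atp5mc2. The rows named Atp5mc1 are annotated as long noncoding RNA and are therefore not among the subunits chosen.

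Atp5if1, the inhibitor that stops complex V from running backwards and burning ATP (ENSRNOG00000013300, chromosome 5, 144738950 to 144742668, minus strand), moved against most of the rest. Cox6a1 and Cox7a1 also had positive genotype fold changes but were not called. Atp5if1 stood at 66.7, 65.9, 69.6 and 50.5 FPKM in WT_ND, 80.1 to 98.5 (median 85.9) in DMD_ND and 61.1 to 83.9 (median 69.5) in DMD_KD. Every DMD_ND library lay above every WT_ND library (log2 fold change 0.47, SE 0.12, adjusted p = 0.00264), while DMD_KD overlapped both. The call was lost with the replicate number as a block, fitted on the libraries of the shared numbers 3 and 9 alone, and was kept in those libraries without the block. The ratio of the catalytic Atp5f1b to the inhibitor within a library was 47.8 to 55.9 in WT_ND, 8.06 to 14.6 in DMD_ND and 14.7 to 29.4 in DMD_KD, or up to 23.8 without DMD_KD replicate 3. A second row named Atp5mk, a short copy that may share reads with the main gene, stood at 6.80, 5.54, 11.1 and 8.16 FPKM in WT_ND and 4.29 to 16.8 (median 5.57) in DMD_ND and was not called (log2 fold change -0.22, SE 0.28, adjusted p = 0.517); under TPM its value was 0.66.

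Across the 41 nuclear subunits, longer genes and more abundant genes had the more negative fold changes. The log2 fold change went with log2 gene length at Pearson r = -0.43 (Spearman rho = -0.53) and with log2 mean level at r = -0.57 (rho = -0.37). Fold changes on this scale understate low genes such as Cox7a1 and Cox4i2, which bears on the relation with level. These are descriptions across genes that share the same 16 libraries and are not independent. The part of length or level in the order of the complexes was not tested.

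Related mitochondrial genes, complex I among them, were mostly called lower too, where 34.3% of all tested genes were. Their medians turned under TPM scaling in 3 of the 7 lists. Of 30 tested assembly factors 26 were called lower and none higher, at a median log2 fold change of -0.67 beside -0.04 for all tested genes, but under TPM 4 were lower and 9 higher (median 0.18, with all 30 below the median gene at 0.73); Cox10, which prepares the heme of complex IV, changed by -1.73, and Atpaf1, which assembles the F1 head, by -1.63. Of 31 genes of mitochondrial DNA expression and upkeep 20 were lower and 1, the thymidine kinase Tk2 (0.52), was higher, at a median of -0.54, against 2 lower and 14 higher under TPM (median 0.35, with 25 of 31 below the median gene). In this list Lrpprc, which stabilises mitochondrial messenger RNA, changed by -1.57, the mitochondrial RNA polymerase Polrmt by -1.05 and the packaging factor Tfam by -0.60. All 5 tested enzymes that feed ubiquinone by other routes were lower (median -1.15, and -0.19 under TPM), among them Gpd2 (-1.44) and Etfdh (-1.38). Of 13 ubiquinone synthesis genes 10 were lower and 1 higher (median -1.13, and -0.13 under TPM), with Coq8a at -2.11 and its relative Coq8b at 1.20. Complex I, the nearest neighbour in function, had 36 of 38 nuclear subunits lower (median -1.11, and -0.10 under TPM) and 7 of 7 mitochondrial ones (median -1.76, and -0.74). Of 19 mitochondrial proteins outside the chain 17 were lower (median -0.99, and 0.01 under TPM). The difference between these lists and the subunits was not tested.

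In Dmd rats on the MCTKD diet most subunits had log2 fold changes above 0 against the normal diet, and no single one passed the test. Of 47 tested, 0 were called in either direction with limma, where 0.00825% of all genes were; 15 had an unadjusted p under 0.05, where 14.3% of all genes did. The log2 fold change was above 0 in 44 of 47 (28 of 47 under TPM), against 48.9% of all tested genes, at a median of 0.30, which was 0.04 under TPM where the median gene lay at -0.22. Nuclear subunits had a median of 0.27 and mitochondrial ones of 0.42. By complex the nuclear medians were 0.33 in II, 0.30 in III, 0.20 in IV and 0.27 in V, against 0.06, 0.03, -0.03 and 0.004 under TPM. DMD_KD replicate 3 bears on this: without it the median was 0.17, with 43 of 47 above 0 and 9 with an unadjusted p under 0.05. The summed level of the fibre markers also ran from 21197 to 37792 FPKM in DMD_ND and from 30086 to 95252 in DMD_KD. Among markers of other cells, none of them called, the log2 fold change for the diet lay below 0 in 5 of 5 for fat cells (median -0.79), 7 of 7 for fibro-adipogenic progenitors (median -0.35) and 9 of 10 for macrophages and leukocytes (median -0.17), and had a median of 0.08 for both endothelium and pericytes. The summed level of the fat cell markers was 114 to 360 FPKM in DMD_ND and 50.9 to 211 in DMD_KD, and that of the progenitor markers 1567 to 2470.7 and 1219 to 1786. The part of these markers in the diet values was not tested.

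The mitochondrial genes Mt-co1 and Mt-cyb had the smallest p-values of all subunits for the diet. In Mt-co1, Mt-co3, Mt-cyb and Mt-atp6 every DMD_KD library lay above every DMD_ND library, which held for 0.842% of all tested genes and for none of the nuclear subunits. Mt-co1 had the smallest p (log2 fold change 0.61, SE 0.18, unadjusted p = 0.00413, adjusted p = 0.21), followed by Mt-cyb (log2 fold change 0.59, SE 0.19, unadjusted p = 0.00642, adjusted p = 0.232). With each DMD_KD or DMD_ND library left out in turn these log2 fold changes were 0.47 to 0.67 and 0.44 to 0.67. Mt-atp6 (log2 fold change 0.43, SE 0.17, unadjusted p = 0.0205, adjusted p = 0.273) and Mt-co3 (log2 fold change 0.40, SE 0.18, unadjusted p = 0.036, adjusted p = 0.322) differed by less. Under TPM the log2 fold changes were 0.34 for Mt-co1, 0.32 for Mt-cyb, 0.16 for Mt-atp6 and 0.13 for Mt-co3.

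Among nuclear subunits the smallest p-values belonged to Atp5if1 and Sdha, which went opposite ways. Atp5if1 stood at 70.3 ± 8.17 (n = 6) FPKM on the MCTKD diet against 87.2 ± 7.25 (n = 6) on the normal diet (log2 fold change -0.31, SE 0.11, unadjusted p = 0.0102, adjusted p = 0.241), or 67.6 ± 5.28 (n = 5) without replicate 3. Sdha stood at 98.9 ± 12.4 (n = 6) FPKM against 79.4 ± 9.55 (n = 6) (log2 fold change 0.31, SE 0.11, unadjusted p = 0.0117, adjusted p = 0.247), or 98.2 ± 13.7 (n = 5) without replicate 3. Under TPM the log2 fold change was -0.58 for Atp5if1 and 0.05 for Sdha. The next were the F1 head genes Atp5f1a (log2 fold change 0.52, SE 0.19, unadjusted p = 0.0155, adjusted p = 0.259) and Atp5f1b (log2 fold change 0.49, SE 0.18, unadjusted p = 0.0169, adjusted p = 0.263). Cox6c, Cox7c, Cox7a2l, Cox4i2, Cox6a1 and Cycs differed least, at 0.07, 0.07, 0.06, 0.07, -0.06 and 0.11 on the log2 scale. None of the 7 lists of related mitochondrial genes had a called member in this comparison, and their medians ran from 0.05 for mitochondrial DNA expression to 0.36 for the mitochondrial subunits of complex I. Under TPM they ran from -0.14 to 0.10, below 0 for mitochondrial DNA expression, assembly factors, ubiquinone synthesis and the proteins outside the chain.

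On the MCTKD diet most subunits were still below wild type. In DMD_KD against WT_ND 39 of 47 were called lower, 0 higher and 8 were not called, where 58.3% of all genes were called, 31.1% lower and 27.3% higher. The median log2 fold change was -0.85, or -0.75 for nuclear and -1.11 for mitochondrial subunits (-0.01 and -0.36 under TPM, where 14 were lower and 5 higher). Every DMD_KD library lay below every WT_ND library in 15 of 47, against 17.3% of all genes. Sdha (log2 fold change -1.46, SE 0.12, adjusted p = 4.72e-08) lay farthest from wild type, followed by Mt-co3 (log2 fold change -1.25, SE 0.20, adjusted p = 3.98e-05) and Atp5f1a (log2 fold change -1.25, SE 0.21, adjusted p = 9.93e-05). Uqcrq (log2 fold change -0.52, SE 0.24, adjusted p = 0.0716) and Atp5mc2 (log2 fold change -0.50, SE 0.25, adjusted p = 0.0991), called lower on the normal diet, were not called here, and neither was Atp5if1 (log2 fold change 0.15, SE 0.12, adjusted p = 0.286). Without the 3 libraries that stood apart 39 were lower and 2 higher, Cox6a1 and Cox7a1, at a median of -0.73, and 38 of the 39 were the same genes. The comparison uses the same WT_ND libraries as that of the genotype and the same DMD_KD libraries as that of the diet, so the 3 are not independent.

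DMD_KD replicate 3 and WT_ND replicates 1 and 4 shared a pattern over the subunits. DMD_KD replicate 3 was the highest of its group in 39 of 47 subunits and the lowest in 2, Uqcrc2 and Cycs. WT_ND replicates 1 and 4 were both above replicates 3 and 9 in 36 of 47 and both below in 3. In 35 subunits both held. In the deposited scaling, the divisor is the number that turned reads per kilobase into FPKM, given here relative to the assigned reads. It was low throughout WT_ND, at 0.569 and 0.595 for replicates 1 and 4 and 0.768 and 0.813 for the other 2. It was 0.762 for DMD_KD replicate 3, 1.07 to 1.25 for the other DMD_KD libraries and 1.18 to 1.41 in DMD_ND. Every WT_ND library thus had a lower divisor than every DMD_ND library. A lower divisor gives every gene of a library a higher value. The part of the divisor in the pattern and in the genotype fold changes was not tested, and under TPM scaling it cancels out.

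**Figure D4:**
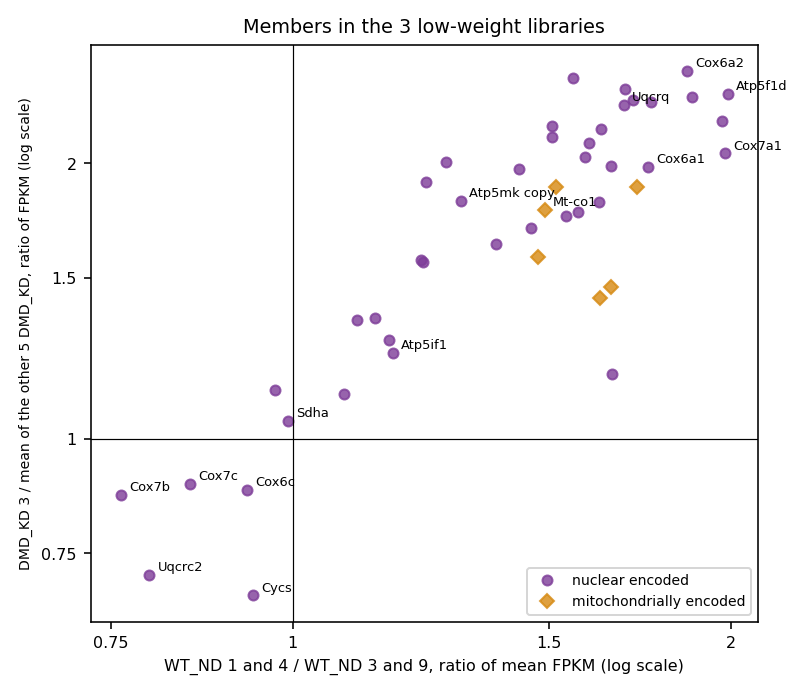
For each tested subunit, the mean FPKM of WT_ND replicates 1 and 4 over that of replicates 3 and 9 (x, log axis) and the FPKM of DMD_KD replicate 3 over the mean of the other 5 DMD_KD libraries (y, log axis). Most genes lie in the upper right, 35 of 47 meeting both patterns, and Uqcrc2 and Cycs, in which DMD_KD replicate 3 was lowest, lie below 1 on y.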

How the data were processed

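Poly-A messenger RNA of frozen tibialis anterior was sequenced in 16 libraries. The authors deposited 1 table of FPKM for 31141 genes, with symbol, position and length per the file headers. Per the submitters' processing notes the tools included featureCounts 1.5.0-p3 and HISAT2 2.0.5, with mRatBN7.2 as the build. The handling of strand and of multiply mapped reads and the annotation release are details not given in the sources used here; gene copies are therefore uncertain. Multiplied by gene length, 100% of values were whole multiples of the worth of 1 read, to within 0.05, from which reads per gene were recovered; the FPKM divisor differed from the assigned reads, so the deposited values are already scaled between libraries. Columns were matched to samples by name, 0 unmatched.

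From these values, log2(FPKM + 1) was tested with limma 3.58.1 in R 4.3.3 over the 12119 genes that reached 1 FPKM in 4 or more libraries: group means, 16 libraries, 13 residual degrees of freedom, eBayes with trend and robust options, two-sided, Benjamini-Hochberg adjusted over all tested genes, called under 0.05. Fold changes on this scale understate low genes. The script was tested on simulated data. Alternatives were TPM and upper-quartile scaling, a pseudocount of 0.1, other filters, library weights, fewer groups, the replicate number as a block and leaving out libraries. Leaving out the 3 low-weight libraries, and the libraries that share a number without a block, were added after seeing the data.

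Subunits and lists were chosen with earlier results of these data known. By rule, values are given for the mitochondrial genes; the Sdh genes, Cyc1 and Cycs; the most abundant and most changed nuclear genes of complexes III to V; the complex IV isoform families; the complex V inhibitor and c subunits; the 4 smallest p-values for diet; and genes not called lower. Uqcrfs1, Uqcrc2, Cox5b, Cox6c, Cox7c and the stalk, rotor and membrane genes of complex V outside this rule were named after their values were seen, as were the genes named from related lists.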

Additional observations from a re-analysis of the deposited data

Results flagged for a closer look

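In each group of 4 or 6 libraries, the highest and the lowest value of each named tested subunit, and of 8 measures per library such as the mitochondrial share of reads, were compared with the rest by their gap relative to the group's range. Of 114 such groups 23 held a value set apart. The groups come from the same 16 libraries and are not independent, so the count cannot be set against a chance rate. In 21 of the 23 it was the highest DMD_KD value and belonged to replicate 3. In complex II these were Sdhb at 211.5 and Sdhc at 334.3 FPKM. In complex III they were Uqcrc1 at 506.2, Cyc1 at 618.3, Uqcrq at 989.4 and Mt-cyb at 22818 FPKM. In complex IV they were Cox4i1 at 512.8, Cox5a at 372.4, Cox6a1 at 174.7, Cox6a2 at 3522, Cox6b1 at 697.9, Cox7a1 at 4.25, Cox7a2l2 at 990.4 and Mt-co1 at 50111 FPKM. In complex V they were Atp5f1a at 1312, Atp5f1b at 2464, Atp5mc2 at 868.8, Atp5mc3 at 518.1, the second Atp5mk row at 8.47, Mt-atp6 at 33171 and Mt-atp8 at 602.8 FPKM. The other 2 were in DMD_ND: the second Atp5mk row was highest in replicate 5, at 16.8 FPKM, and Cox4i2 lowest in replicate 11, at 0.545 FPKM.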

How the results depend on the processing

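In DMD_ND against WT_ND, TPM scaling left 19 subunits lower and 7 higher, with medians of -0.078 (nuclear) and -0.64 (mitochondrial); it took 16 subunits from below to above 0, among them Uqcrq (0.20), Atp5mc2 (0.25), Cox7b (0.14), Cox7a2l (0.95) and the second Atp5mk row (0.66). In DMD_KD against WT_ND it left 14 lower and 5 higher, with medians of -0.0098 and -0.36, and took 16 from below to above 0, among them Cox7b (0.024). The split of calls over all genes moved likewise, to 8575 higher and 721 lower and to 6909 and 576. Upper-quartile scaling gave 2 higher subunits for the genotype and 3 in DMD_KD against WT_ND, and a pseudocount of 0.1 gave 1 there, Cox7a1. A mean of at least 5 FPKM left 4361 and 3950 called genes. Library weights gave 3 higher subunits in each comparison with WT_ND, a mitochondrial median of -1.36 for the genotype and 93 called genes for the diet, none a subunit. Fitting only the 2 groups compared called 2 genes for the diet and left 32 lower subunits in DMD_KD against WT_ND, without Atp5me, Atp5mg, Atp5po, Cox6a2, Cox7a2l2, Uqcr10 and Uqcrh. Without the 3 low-weight libraries there were 3 higher subunits and a mitochondrial median of -1.34 for the genotype, 3 genes called for the diet, and 2 higher subunits in DMD_KD against WT_ND.

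The replicate numbers were checked for pairing by the correlation of deviations from group means, which was 0.09, 0.02, 0.02 and 0.23 between the same-numbered DMD_KD and DMD_ND libraries, -0.04, -0.66 and 0.41 between DMD_KD and WT_ND, and -0.02 and 0.06 between DMD_ND and WT_ND. Replicate 9 matched the library of its own number best in each comparison, and no other number did. With so few shared numbers, the check cannot tell whether a number marks anything that the libraries share. With the replicate block, on the same-numbered libraries alone, the genotype gave 2 higher subunits, without Atp5if1 (adjusted p = 0.0522), a mitochondrial median of -1.29 and a mitochondrial minus nuclear difference of -0.41; the diet gave 0 called genes, 12 subunits having an unadjusted p under 0.05; and DMD_KD against WT_ND gave 3 lower subunits and 2831 called genes. Without the block those libraries gave 3 higher subunits, -1.29 and -0.41 for the genotype; 0 called genes and 15 subunits with an unadjusted p under 0.05 for the diet; and 7 lower subunits and 4035 called genes in DMD_KD against WT_ND.

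Leaving out each library in turn, the genotype gave 40 to 42 lower and 1 to 2 higher subunits, 7413 to 7868 called genes, medians of -1.23 to -0.95 (nuclear) and -1.83 to -1.52 (mitochondrial) and a difference of -0.63 to -0.54. The diet gave 1 to 7 called genes, no subunit, and medians of 0.14 to 0.35 and 0.32 to 0.47. DMD_KD against WT_ND gave 32 to 41 lower and 0 to 1 higher, 6351 to 7731 called genes and medians of -0.95 to -0.68 and -1.28 to -0.98, with the fewest, 32, without WT_ND replicate 4. The causes of these moves were not tested. Genes near 1 FPKM, such as Cox7a1 and Cox4i2, rest on few reads.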

Other observations

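Some rows of the deposited table describe subunits of these complexes under another symbol or none, and so were not among those chosen. A row described as Cox8b, the heart and muscle isoform of a small complex IV subunit, had a mean of 1486 FPKM in wild type (SD 339, n = 4), 794 in Dmd rats on the normal diet (SD 42.0, n = 6) and 1006 on MCTKD (SD 335, n = 6), and was lower in DMD_ND (log2 fold change -0.87, limma adjusted p = 0.000935), a direction that turned under TPM scaling (0.14). A row described as its general isoform Cox8a went the other way, at 71.4 ± 20.0, 107.5 ± 14.6 and 101.3 ± 27.4 FPKM, and was higher in DMD_ND (0.62, adjusted p = 0.0099, and 1.62 under TPM). The difference between the isoforms was not tested. Rows described as the complex V subunits epsilon and gamma, the latter under the symbol Taf3, changed by -1.09 (adjusted p = 0.00145) and -1.56 (adjusted p = 5.84e-06), or -0.08 and -0.55 under TPM. Ndufa4, now counted with complex IV, fell from 199.3 ± 15.3 FPKM to 106.9 ± 6.81 (-0.89, adjusted p = 2.18e-06, turning to 0.12 under TPM), and stood at 117.5 ± 12.9 in DMD_KD.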
